A study of Mus musculus with 6 samples.

Results

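The genes described here are the chaperones of the endoplasmic reticulum (ER) and the unfolded protein response (UPR), 33 genes taken by name from the pathway, by a rule that uses none of their values, although results of these data were known when the list was made. All 33 had reads among the 23492 genes seen in the series, and 29 of them were among the 9772 genes with enough reads to be tested. The tissue was epididymal white adipose tissue, the fat pad beside the epididymis, of male wild type C57BL/6N mice, an inbred strain, 20 weeks old. Poly-A RNA was sequenced as direct cDNA on a Nanopore device, which reads cDNA molecules without PCR. The 3 control mice (ctrl 5, ctrl 6 and ctrl 10) carry the label ctrl, and base housing was at 22 to 24 °C. The 3 cold mice (cold 7, cold 12 and cold 16) were kept alone at 4 °C for 24 h before tissue was taken, and the labels do not say whether the control mice were also housed alone. All 6 are separate animals of 1 genotype, and the labels name no agent for either group.

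Proteins that a cell secretes or places in membranes are folded in the ER, where chaperones hold unfinished chains, disulfide isomerases pair their cysteines, and lectin chaperones retain glycoproteins until they are folded. Chains that fail are drawn back into the cytosol and degraded, which is called ER-associated degradation. When unfolded protein accumulates, 3 sensors in the ER membrane respond. PERK (gene Eif2ak3) slows translation and raises the transcription factor ATF4, IRE1 (Ern1) splices the mRNA of the factor XBP1, and ATF6 is cut to release a factor that acts with XBP1 on chaperone genes. Adipocytes secrete adipokines in bulk, and the UPR is known in fat tissue mainly from work on obesity and on lipid load.

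The promoters of these genes are known for a few short elements, and the sequences below show them. Genes that share an element do not all fall in the same set of those by which the results are ordered. In RefSeq's promoters of GRCm38.p6 (250 bases before to 50 bases after the start site), 29 of the 33 genes were matched. Atf6, Hyou1, Manf and Derl1 had no entry and were not searched, so the 29 matched genes are not the same as the 29 tested genes. The ER stress response element, searched on both strands as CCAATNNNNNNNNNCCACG, lay in 9 of the 29 matched genes (31.0%), in 37 of all 27025 genes in the table (0.137%) and in 13 of the 7580 tested genes in it (0.172%). The 9 genes are Calr, Canx, Creld2, Derl3, Dnajc3, Hsp90b1, Hspa5, Pdia6 and Syvn1, and Hsp90b1 holds the element at 2 places. The related ERSE-II, ATTGGNCCACG, lay in Herpud1 alone among the 29, and in 12 genes of the table (0.0444%). The amino acid response element at which ATF4 binds, TGATGNAA, lay in Asns, Chac1, Herpud1 and Trib3, against 4.51% of all genes in the table. The XBP1 element TGACGTGG lay in none of the 29 windows, and in 0.714% of the table. ERSE and TGACGTGG or ERSE-II were searched separately, so 1 stretch could count under more than 1 of them. Capitals mark the match, with 5 bases on each side, read 5′ to 3′ on the strand that holds the motif.
Hspa5, chr2:34772020-34772048, gene strand (+): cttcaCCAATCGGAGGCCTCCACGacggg
Hsp90b1, chr10:86705633-86705661, gene strand (-): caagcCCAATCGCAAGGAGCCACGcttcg
Hsp90b1, chr10:86705528-86705556, opposite strand (+): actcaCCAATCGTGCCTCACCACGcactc
Calr, chr8:84847070-84847098, opposite strand (+): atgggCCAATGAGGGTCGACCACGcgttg
Pdia6, chr12:17266486-17266514, gene strand (+): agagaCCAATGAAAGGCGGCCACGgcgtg
Herpud1 (ERSE-II), chr8:94386372-94386392, gene strand (+): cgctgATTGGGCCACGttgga
Asns (TGATGNAA), chr6:7693220-7693237, gene strand (-): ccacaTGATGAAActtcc
Chac1 (TGATGNAA), chr2:119351044-119351061, opposite strand (-): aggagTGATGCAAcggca
Trib3 (TGATGNAA), chr2:152344034-152344051, opposite strand (+): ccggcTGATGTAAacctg
The Hspa5 match lay at bases -65 to -47 from RefSeq's start site and the Asns match at bases -23 to -16, while that of Trib3 lay at bases 14 to 21, after the start. These are matches of letters, not measured binding sites.

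The depth was 726283 reads (cold 7) to 1341592 reads (ctrl 6) per mouse, and 3 reads, the limit that a count of 0 allows, are worth 2.24 to 4.14 CPM (reads of a gene scaled to the reads on all genes of that library). The defining adipocyte markers Adipoq and Plin1 had at least 1065 reads in every mouse, and 10 mature adipocyte markers together made up 71691 to 77182 CPM in ctrl and 67462 to 75343 CPM in cold mice. Epithelial markers moved with the groups: 10 of them summed to 21.7 to 70.4 CPM in ctrl and 172 to 457 CPM in cold mice, and 6 of the 7 tested passed the threshold (an adjusted p under 0.05 in edgeR's quasi-likelihood test across all genes), although Cldn4 had 1 read in all. The summed levels of the other marker lists overlapped between groups. Of the 3 tested plasma and B cell markers, 2 stood lower in cold mice at an unadjusted p under 0.05. Jchain, the joining chain of antibodies that plasma cells secrete, had 108, 56 and 18 reads in ctrl 5, 6 and 10, and 7, 23 and 20 reads in cold 7, 12 and 16 (log2 fold change, cold minus ctrl, -1.55, adjusted p = 0.269), and Igkc, an antibody light chain, had 712 reads in ctrl and 269 in cold mice (-1.10, adjusted p = 0.196). The third tested one, Ighm, was near level between the groups (-0.06, adjusted p = 0.966). Cold 16 had the highest share of reads on transcripts annotated as retained introns, 4.38% against 3.25% to 3.63% in the other mice. The part of these differences in the results was not tested. In whole tissue, fewer cells of a type and less RNA per cell cannot be told apart.

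No gene of the ER chaperone and UPR set passed the threshold after 24 h of cold. By log2 fold change Manf, a small secreted ER protein, differed most among the tested members, with 31.4 ± 4.60 CPM (SD, n = 3) in ctrl and 51.0 ± 12.4 CPM in cold mice. Asns, the ATF4 target that makes asparagine, came next on that scale, with 49.0 ± 5.52 CPM in ctrl and 69.5 ± 18.1 CPM in cold mice. Hspa5, which encodes BiP, the central ER chaperone, had 227 ± 31.6 CPM in ctrl and 262 ± 22.4 CPM in cold mice.

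By edgeR's quasi-likelihood test, 0 of the 29 tested members were called, against 64 of the 9772 genes tested (0.655%), and DESeq2 also called 0. At an unadjusted p under 0.05, 2 members stood higher in cold mice (Manf and Asns) and 0 lower, against 4.72% and 3.71% of all genes. Groups that did not overlap were found for 1 member, Manf, higher in cold mice, and for 0 members lower, while 5.96% of all tested genes did not overlap with cold higher and 7.7% with cold lower. The signs were 20 higher and 9 lower, and the median log2 fold change, cold minus ctrl, was 0.06 beside 0.01 over all genes tested. The values ran from -0.32 (Chac1) to 0.71 (Manf). Of the 29 members, 27 (93.1%) had a log2 fold change within 0.5 of 0, against 90.2% of all genes.

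The intervals show what size of change these 6 mice leave possible. In 26 of the 29 tested members the 95% interval of the fold lay within 0.5 to 2. The other 3 were Manf (1.18 to 2.26), Ppp1r15a (0.823 to 2.22) and Chac1 (0.453 to 1.41). The median standard error (SE) of the log2 fold change was 0.19 for the members and 0.24 for all genes. The median SD between mice of a group, on log2(CPM + 1), was 0.22 for the members and 0.27 for all genes. Members and all genes were not matched for number of reads, on which SE, SD and the share within 0.5 of 0 depend. These values therefore do not show that the members vary less than other genes of their level.

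**Figure D1:**
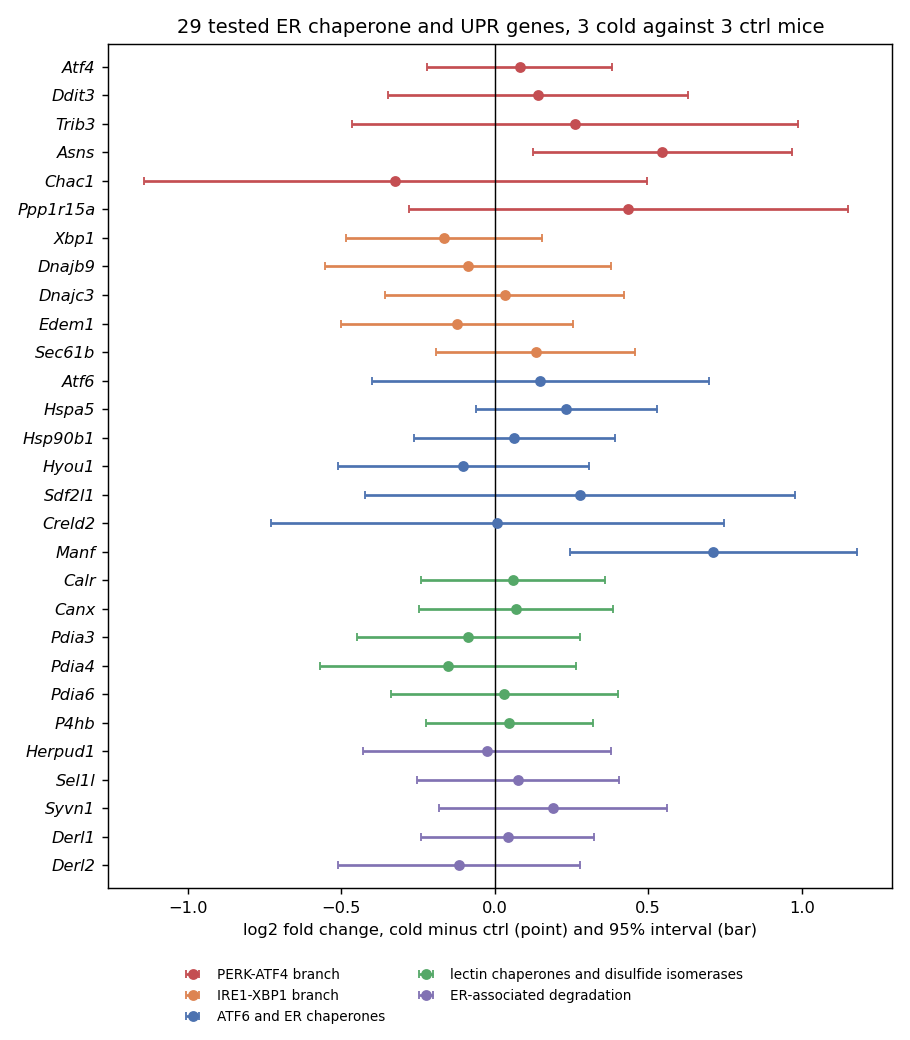
Log2 fold change of each of the 29 tested genes, cold minus ctrl, on the x axis (points) with its 95% interval (bars), coloured by branch. The intervals of Manf (0.24 to 1.18) and Asns (0.12 to 0.97) lie above 0, and those of the other 27 genes cross 0.

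Of the PERK-ATF4 branch, 6 of 7 genes were tested, 5 with a positive and 1 with a negative log2 fold change (median 0.20), and 0 passed. Its summed level was 210, 234 and 228 CPM in ctrl 5, 6 and 10, and 247, 284 and 227 CPM in cold 7, 12 and 16. Cold 16 lay below ctrl 6 and ctrl 10, so the groups overlapped. Eif2ak3, the gene of the sensor PERK, had only 61 reads in the 6 mice and was not tested, and its levels of 7.94 to 13.9 CPM in ctrl and 8.94 to 10.9 CPM in cold mice overlapped.

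Atf4 (ENSMUSG00000042406.8, GRCm38 chromosome 15, 80255184 to 80257541, + strand) encodes the transcription factor of the branch, whose level is set largely by translation. Its mRNA stood at 101, 113 and 109 CPM in ctrl 5, 6 and 10, and at 106, 120 and 109 CPM in cold 7, 12 and 16. The 6 mice thus lay within a narrow band and the groups overlapped, with a log2 fold change of 0.08 ± 0.14 (SE, adjusted p = 0.943). Ddit3, which encodes CHOP, a factor known for promoting cell death under lasting ER stress, had 25.6, 27.6 and 23.8 CPM in ctrl and 23.4, 31.0 and 28.1 CPM in cold mice. Its lowest and its highest value were both in cold mice, and the log2 fold change was 0.14 ± 0.23 (adjusted p = 0.933).

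Asns (ENSMUSG00000029752.12, chromosome 6, 7675169 to 7693254, - strand) had 42.7, 53.0 and 51.2 CPM in ctrl 5, 6 and 10, and 70.3, 87.2 and 51.1 CPM in cold 7, 12 and 16. Cold 7 and cold 12 lay above all control mice, and cold 16 lay level with ctrl 10. The log2 fold change was 0.55 ± 0.20, with an unadjusted p of 0.0141 and an adjusted p of 0.395. Without cold 12 the log2 fold change was 0.32, and without cold 16 it was 0.72 with an adjusted p of 0.111.

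The other 3 ATF4 targets had few reads. Trib3, a pseudokinase that binds ATF4 and CHOP, had 66 reads in all, at 9.60 to 10.6 CPM in ctrl and 9.65 to 13.4 CPM in cold mice (log2 fold change 0.26 ± 0.35). Ppp1r15a, the phosphatase subunit that ends the translation block set by PERK, had 8.53 to 11.2 CPM in ctrl and 10.2 to 15.2 CPM in cold mice (0.43 ± 0.34, adjusted p = 0.830). Chac1, an enzyme that degrades glutathione, had 8.53 to 15.0 CPM in ctrl and 6.71 to 12.4 CPM in cold mice (-0.32 ± 0.39, adjusted p = 0.915). Chac1 and Trib3, 2 genes with the same TGATGNAA element as Asns, thus had values of opposite sign, and both were smaller in size than their SE.

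Of the IRE1-XBP1 branch, 5 of 6 genes were tested, 2 with a positive and 3 with a negative value (median -0.09), and 0 passed. The summed level was 506 to 577 CPM in ctrl and 480 to 575 CPM in cold mice. Ern1, the gene of the sensor IRE1, had 45 reads in all and was not tested. It had 8.53, 5.97 and 1.77 CPM in ctrl 5, 6 and 10, and 13.8, 10.1 and 6.39 CPM in cold 7, 12 and 16, and the value of cold 16 lay below that of ctrl 5.

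Xbp1 (ENSMUSG00000020484.18, chromosome 11, 5520659 to 5525893, + strand) had 172, 140 and 204 CPM in ctrl 5, 6 and 10, and 152, 157 and 140 CPM in cold 7, 12 and 16. All cold mice lay inside the range of the control mice, whose SD was 32.1 CPM against 8.34 CPM in the cold group. The log2 fold change was -0.17 ± 0.15 (adjusted p = 0.866), and the 95% interval of the fold ran from 0.714 to 1.11. The value was -0.31 without ctrl 6 and -0.017 without ctrl 10, and -0.29 and -0.00059 with X1 and X2, the 2 count files of each mouse, taken alone. Of the markers of plasma cells, which are known for high Xbp1, Jchain and Igkc also had fewer reads in cold mice, while Ighm was near level, as given above. The part of these cells in this value was not tested. The read-out of the IRE1 branch is not this level but the removal of 26 bases from the mRNA, at chromosome 11, 5524279 to 5524304 in exon 4, shown in capitals within chr11:5524259-5524324 (+ strand).
Xbp1: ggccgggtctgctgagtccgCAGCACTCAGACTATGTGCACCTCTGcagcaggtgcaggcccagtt
Of the 4 Xbp1 transcripts in GENCODE M21, 3 hold this stretch and 0 hold the joined form without it. Xbp1-201, which holds it, took 971 reads, against 9 for Xbp1-202, 6 for Xbp1-203 and 0 for Xbp1-204. Since reads were counted per annotated transcript, these counts do not separate spliced from unspliced Xbp1 mRNA, and splicing by IRE1 was not analysed here.

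The XBP1 targets of the branch showed no common sign. Dnajb9, an ER J-protein that works with BiP, had 30.9 to 44.1 CPM in ctrl and 30.2 to 40.0 CPM in cold mice (log2 fold change -0.09 ± 0.22). Dnajc3, a further J-protein of the ER, had 60.9 to 88.8 CPM in ctrl and 66.3 to 92.4 CPM in cold mice (0.03 ± 0.19). Edem1, which hands misfolded glycoproteins to degradation, had 56.7 to 76.8 CPM in ctrl and 56.5 to 70.3 CPM in cold mice (-0.12 ± 0.18). In all 3 genes the groups overlapped, and the adjusted p lay between 0.922 and 0.984. Sec61b, a subunit of the channel through which chains enter the ER, had 151, 177 and 192 CPM in ctrl and 221, 190 and 153 CPM in cold mice (0.13 ± 0.15, adjusted p = 0.911), and the gap between cold 7 and cold 16 exceeded that between the group means of 174 and 188 CPM. A near-identical gene, Gm10320 (98.7% identity over 467 bases, 14 reads), could share reads with Sec61b.

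All 7 genes of the set with ATF6 and the ER chaperones it is known to act on were tested, 6 with a positive and 1 with a negative value (median 0.15), and 0 passed. The summed level was 573, 520 and 647 CPM in ctrl 5, 6 and 10, and 709, 657 and 551 CPM in cold 7, 12 and 16. The order ran from ctrl 6 over cold 16 to cold 7, with both groups spread over most of the range. Atf6, the sensor and factor itself, had 18.7 to 26.7 CPM in ctrl and 20.1 to 28.1 CPM in cold mice (log2 fold change 0.15 ± 0.26, adjusted p = 0.942).

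Manf (ENSMUSG00000032575.16, chromosome 9, 106838312 to 106891979, - strand) is an ER stress gene whose product binds BiP in the ER and can be secreted. It had 26.7, 35.8 and 31.8 CPM in ctrl 5, 6 and 10, and 60.7, 55.4 and 37.0 CPM in cold 7, 12 and 16, from 25, 48 and 36 reads and 44, 66 and 29 reads. Every cold mouse lay above every control mouse, but cold 16 exceeded ctrl 6 by less than 1 read of its library, which is worth 1.28 CPM. The log2 fold change was 0.71 ± 0.22 with an unadjusted p of 0.00482, and the adjusted p over all genes was 0.264. It ranged from 0.58 without cold 7 to 0.89 without cold 16, where the adjusted p was 0.0714. The Manf locus overlaps Rbm15b on the same strand (71 reads) and Dcaf1 on the opposite strand (139 reads), and whether the counting used strand is not given, so some reads of these genes could be exchanged.

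The large chaperones did not separate the groups. Hspa5 (ENSMUSG00000026864.13, chromosome 2, 34771970 to 34777547, + strand) had 207, 210 and 263 CPM in ctrl 5, 6 and 10, and 288, 247 and 252 CPM in cold 7, 12 and 16. Ctrl 10 lay above cold 12 and cold 16, and the log2 fold change was 0.23 ± 0.14 (adjusted p = 0.731, 95% interval of the fold 0.958 to 1.44). It was 0.14 without cold 7 and 0.36 without ctrl 10. Hsp90b1, the ER form of the chaperone Hsp90, had 221, 195 and 244 CPM in ctrl and 261, 242 and 172 CPM in cold mice. Both its highest value, in cold 7, and its lowest, in cold 16, came from cold mice (0.06 ± 0.16, adjusted p = 0.961). Hyou1, a nucleotide exchange factor for BiP, had 41.8 to 50.3 CPM in ctrl and 38.3 to 47.8 CPM in cold mice (-0.10 ± 0.20, adjusted p = 0.950). Hsp90b1 overlaps the pseudogene 1810014B01Rik, which took 85 reads and shares 273 bases at 100% identity with it.

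The remaining genes of the set varied most between mice of a group in proportion to their level. They had few reads, 11 to 30 per mouse for Sdf2l1 and 7 to 23 for Creld2, so counting error is part of this spread. Sdf2l1, a component of a chaperone complex with BiP, had 25.6, 9.71 and 19.4 CPM in ctrl and 22.1, 25.2 and 14.1 CPM in cold mice (log2 fold change 0.28 ± 0.33). Creld2, an ER protein with EGF-like repeats known as an ER stress gene, had 18.1, 8.96 and 18.5 CPM in ctrl and 13.8, 19.3 and 8.94 CPM in cold mice. Ctrl 6 was the lowest control in both genes, and cold 16 the lowest cold mouse in both. The log2 fold change of Creld2 was 0.01 ± 0.35 and had the opposite sign with DESeq2 (-0.04) and without a filter on low counts (-0.02).

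**Figure D2:**
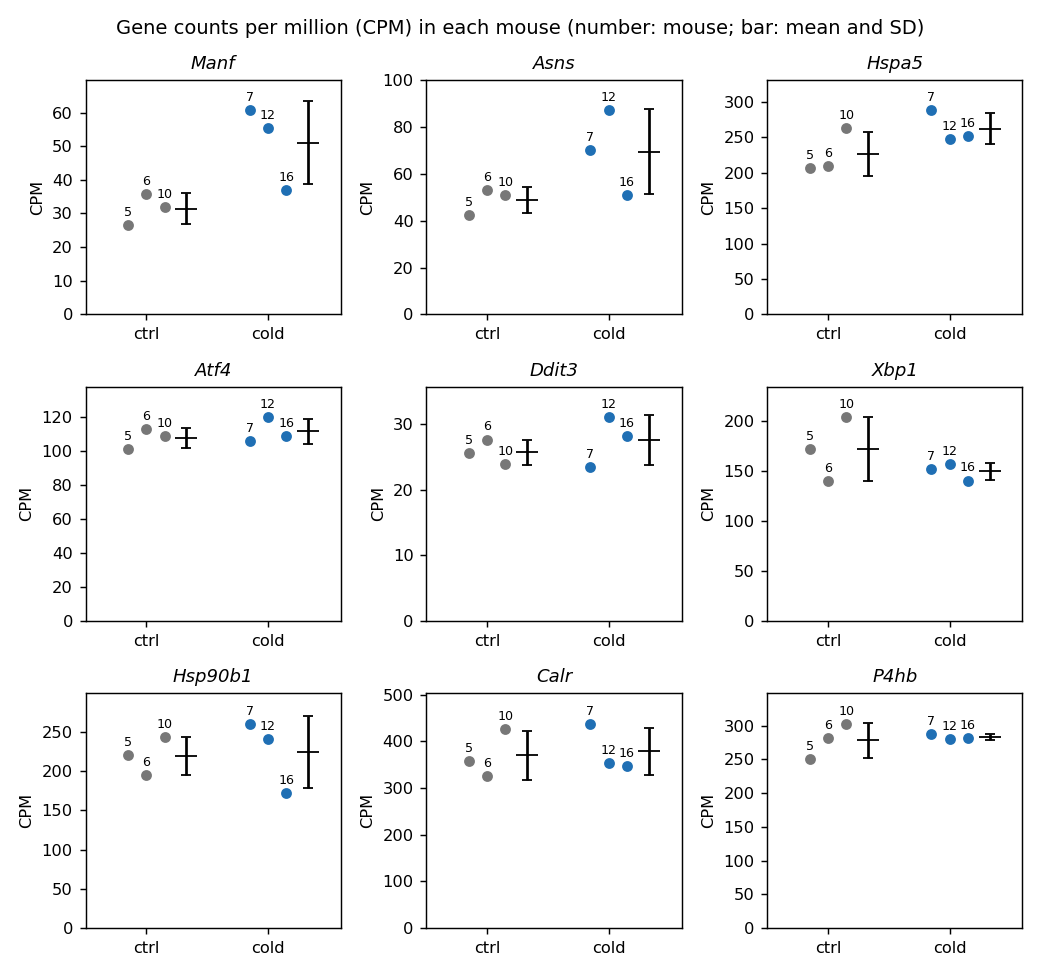
CPM of 9 genes (y axis, from 0) in the 3 ctrl and 3 cold mice, 1 point per mouse with its number, and the mean with SD of each group beside the points. Manf is the 1 gene of these in which all cold mice (37.0 to 60.7 CPM) lie above all ctrl mice (26.7 to 35.8 CPM).

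Of the lectin chaperones and disulfide isomerases, 6 of 7 genes were tested, 4 with a positive and 2 with a negative value (median 0.04), and 0 passed. The summed level was 1236 ± 134 CPM in ctrl and 1235 ± 141 CPM in cold mice, so the group means were nearly equal while ctrl 6 (1131 CPM) and cold 7 (1398 CPM) marked the range. Calr, the soluble lectin chaperone calreticulin, had 357, 325 and 426 CPM in ctrl and 437, 353 and 346 CPM in cold mice (log2 fold change 0.06 ± 0.14). Canx, its membrane-bound relative calnexin, had 202, 175 and 222 CPM in ctrl and 244, 197 and 175 CPM in cold mice (0.07 ± 0.15). In both genes ctrl 10 and cold 7 stood above the other mice of their group, and the adjusted p values were 0.961 and 0.958.

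The isomerases gave a similar picture, without a common sign. Pdia3, which works on glycoproteins held by the lectins, had 190, 160 and 154 CPM in ctrl and 207, 140 and 120 CPM in cold mice (-0.09 ± 0.17). Pdia4 had 90.7, 74.7 and 125 CPM in ctrl and 85.5, 69.6 and 105 CPM in cold mice (-0.15 ± 0.20). Pdia6, which also acts on IRE1 and PERK, had 91.7, 110 and 150 CPM in ctrl and 127, 104 and 128 CPM in cold mice (0.03 ± 0.18). P4hb, a general isomerase and also a subunit of collagen prolyl 4-hydroxylase, had 251, 282 and 303 CPM in ctrl and 288, 280 and 282 CPM in cold mice (0.05 ± 0.13). Its cold mice lay within a few CPM of one another, with an SD of 4.16 CPM against 26.2 CPM in ctrl, and the 95% interval of its fold was 0.857 to 1.25. Pdia5 had 37 reads in all and was not tested, at 4.48 to 7.94 CPM in ctrl and 2.55 to 9.65 CPM in cold mice.

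Of the ER-associated degradation genes, 5 of 6 were tested, 3 with a positive and 2 with a negative value (median 0.04), and 0 passed. The summed level was 442 ± 9.36 CPM in ctrl and 447 ± 16.8 CPM in cold mice. Sel1l and Syvn1 together form the ubiquitin ligase complex that carries out most of this degradation. Sel1l had 75.7, 79.1 and 71.5 CPM in ctrl and 78.6, 77.2 and 79.2 CPM in cold mice (log2 fold change 0.08 ± 0.16). Syvn1 had 50.1, 64.2 and 63.5 CPM in ctrl and 70.3, 62.9 and 69.0 CPM in cold mice (0.19 ± 0.18, adjusted p = 0.869), and only cold 12 lay inside the control range. Mrpl49, on the opposite strand, overlaps Syvn1 over 91 bases and had 255 reads.

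Herpud1, a membrane protein that helps to assemble that ligase complex, had 68.3, 59.0 and 43.2 CPM in ctrl and 56.5, 53.7 and 53.7 CPM in cold mice (-0.03 ± 0.19). Its promoter holds both ERSE-II and TGATGNAA, and its cold mice all lay inside the control range. Derl1 and Derl2, membrane proteins through which substrates leave the ER, had log2 fold changes of 0.04 ± 0.14 and -0.12 ± 0.19. Derl1 had 180 to 214 CPM in ctrl and 185 to 211 CPM in cold mice, and Derl2 had 55.2 to 58.2 CPM in ctrl and 40.9 to 59.3 CPM in cold mice. Derl3, the third of this family, had 1 read in ctrl 5 and 0 reads in the other mice, so it was not detectable at this depth beyond that read, although its promoter holds the ER stress response element.

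**Figure D3:**
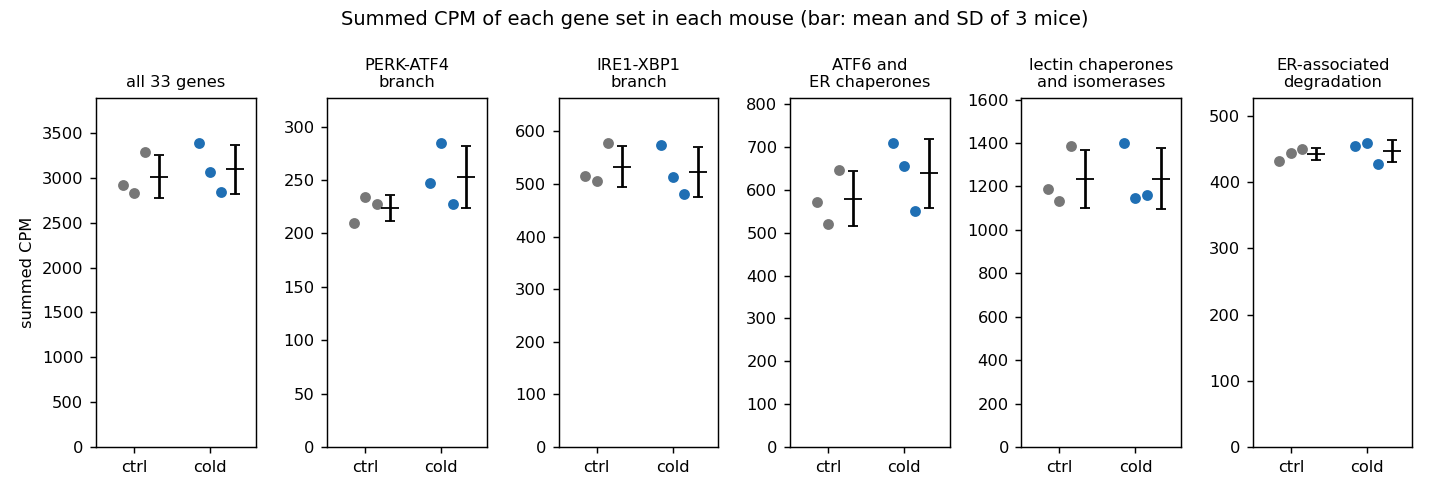
Summed CPM (y axis, from 0) of all 33 genes and of the 5 sets, 1 point per mouse, with the mean and SD of the 3 ctrl and 3 cold mice. In every panel the groups overlap. For all 33 genes the means were 3015 ± 241 CPM in ctrl and 3096 ± 271 CPM in cold mice.

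Summed over all 33 genes, the level was 2920, 2836 and 3289 CPM in ctrl 5, 6 and 10, and 3384, 3061 and 2845 CPM in cold 7, 12 and 16. The group means differed by 2.70%, which is less than the spread between mice of either group. Single mice of both groups marked the ends of the range. Among the 29 tested genes, cold 7 had the highest value of the 6 mice in 11 and ctrl 10 in 8, and ctrl 5 had the lowest in 11. Within the cold group, cold 7 was the highest in 15 genes and cold 16 the lowest in 15, and within the control group ctrl 10 was the highest in 16. Fibroblast and precursor markers summed to 2857, 1896 and 2814 CPM in ctrl 5, 6 and 10, and to 3133, 2222 and 2002 CPM in cold 7, 12 and 16, and macrophage markers to 1440, 1135 and 1251 CPM and to 1612, 1190 and 949 CPM. Cold 7 was highest and cold 16 lowest of the cold mice in both marker lists, as in the sum of the 33 genes. Of the control mice, ctrl 6 was lowest in both lists and in that sum, but ctrl 5 was highest in both lists and ctrl 10 in the sum. The part of these cells in the result was not tested.

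**Figure D4:**
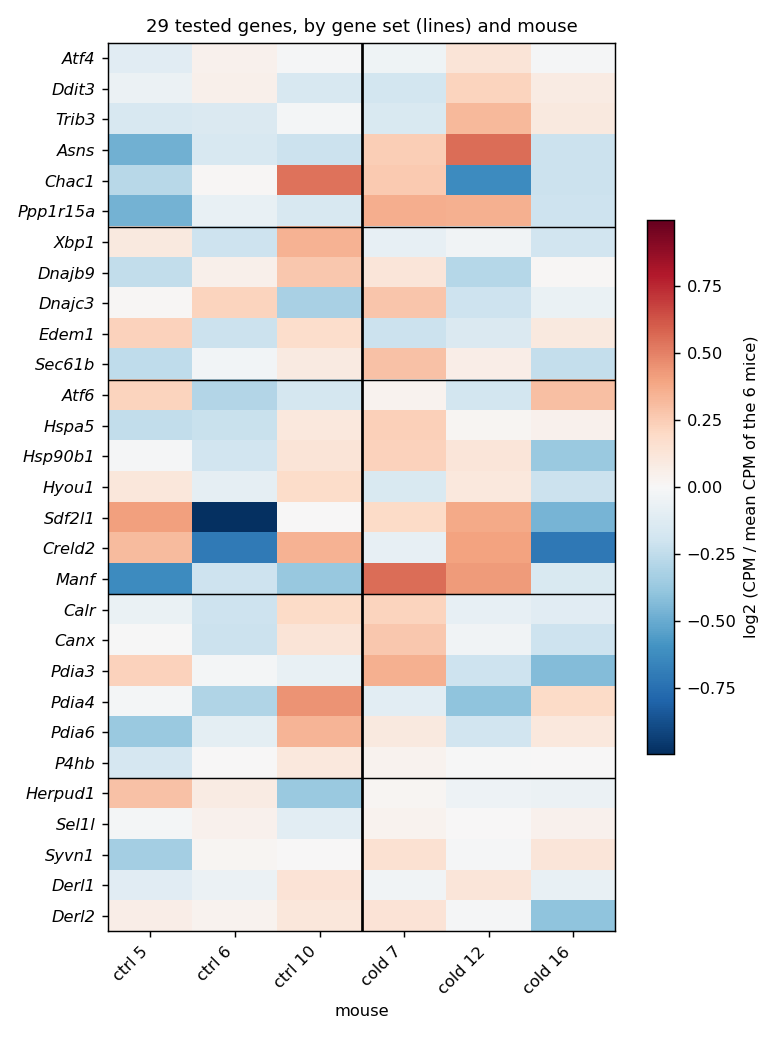
Log2 of the CPM of each of the 29 tested genes (rows, grouped by branch) in each mouse (columns) over the gene's mean in the 6 mice, red above and blue below it. The column of cold 7, the highest mouse in 11 genes, is mostly red from Sec61b to Pdia3, and that of cold 16 is mostly blue there.

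The genes with the ER stress response element had small values. Of the 9 members that hold it, 8 were tested and all 8 had a positive log2 fold change, but between 0.01 (Creld2) and 0.23 (Hspa5), with a median of 0.06, beside 0.06 for all tested members. The sign of Calr, Canx, Creld2, Dnajc3, Hsp90b1 and Pdia6 changed under at least 1 other setting or without 1 mouse. Among the 28 genes of the table with the element that are not members, 5 were tested (Acacb, Adcy3, Alg12, Hnrnpa3 and Pan2), with values from -0.40 to 0.60 and a lowest adjusted p of 0.361. The 4 members with TGATGNAA had 2 positive and 2 negative values.

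Transcripts were examined because long reads are assigned to isoforms. How the counting placed reads that match more than 1 transcript of a gene is not given. The shares below may depend on that placement, which was not tested. The 33 genes had reads on 102 annotated transcripts, of which 38, from 28 genes, were tested. Of the member transcripts 0 were called by edgeR, where 0.381% of the 12325 transcripts tested were, and DESeq2 also called 0. At an unadjusted p under 0.05 stood 2 of the 38, Manf-202 and Asns-201, against 6.87% of all transcripts, and the lowest adjusted p was 0.550. Transcript usage, how the reads of a gene divide over its transcripts, could be tested in 9 members and changed in 0, with 0 at an unadjusted p under 0.05 and a lowest unadjusted p of 0.503 (Atf4). Over all 2624 genes tested for usage, 0.0% passed and 0.953% had an unadjusted p under 0.05.

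Manf-202, the main Manf transcript with 191 of its 248 reads, had 18.1, 27.6 and 24.7 CPM of all reads in ctrl 5, 6 and 10, and 50.9, 46.9 and 20.4 CPM in cold 7, 12 and 16. At this level cold 16 lay below ctrl 6 and ctrl 10, so the groups overlapped (log2 fold change 0.77 ± 0.29, adjusted p = 0.550). Without cold 16, Manf-202 passed the threshold (log2 fold change 1.05 ± 0.24, adjusted p = 0.0419), with 2 cold mice left. The shorter Manf-201 took 41.4% of the gene's reads in cold 16, 12 of 29 reads, and 13.6% to 28.0% in the other mice. It starts 564 bases downstream of Manf-202 and ends 1338 bases before it.

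For Asns, the split between transcripts held steady as the gene's level varied. Asns-201 took 62.4% ± 2.36 of the reads in ctrl and 63.7% ± 1.92 in cold mice, and Asns-202, which starts 383 bases downstream and has the same coding sequence, took most of the rest. Asns-201 had 27.7, 32.8 and 30.8 CPM in ctrl and 45.4, 53.6 and 33.2 CPM in cold mice. All cold mice lay above the controls here, cold 16 by a margin of less than 1 read (log2 fold change 0.57 ± 0.23, adjusted p = 0.589). Asns-202 had 14.9 to 20.3 CPM in ctrl and 17.9 to 33.5 CPM in cold mice (0.51 ± 0.29).

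The reads of Hspa5 were likewise divided in nearly the same proportion in both groups. Hspa5-201 took 56.2% ± 1.59 of the reads in ctrl and 55.4% ± 1.72 in cold mice, and Hspa5-202 took 43.3% ± 1.20 and 44.3% ± 2.31. Both encode the same protein, and Hspa5-202 ends 1016 bases earlier and keeps an 82-base intron (chromosome 2, 34772147 to 34772228) that Hspa5-201 lacks. The response element printed above lies after the annotated start of Hspa5-201 at 34771970 and before that of Hspa5-202 at 34772095. Canx was split almost evenly between Canx-201 (50.1% ± 1.82 in ctrl, 53.2% ± 1.51 in cold mice) and Canx-205, whose 3′ end lies 506 bases further on and whose coding sequence is the same (48.5% ± 1.65 and 45.8% ± 2.12). The shares of Canx-201 in ctrl 6 (52.1%) and cold 7 (51.4%) lay in reverse order, and the unadjusted usage p was 0.707.

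In a few members a large part of the reads fell on transcripts annotated as not coding for the full protein. Atf4-203, a single-exon transcript that keeps the introns of Atf4 and is annotated as a retained intron, took 27.4%, 27.8% and 26.0% of the Atf4 reads in ctrl 5, 6 and 10, and 22.1%, 33.6% and 43.5% in cold 7, 12 and 16. The 3 control mice agree within 2 percentage points, while the cold mice spread on both sides of them. Cold 16 is also the mouse with the highest retained-intron share over all genes. When only transcripts of the protein coding type were summed, the log2 fold change of Atf4 was -0.03 in place of 0.08. Of the Hsp90b1 reads 15.5%, 19.2% and 13.0% in ctrl and 14.3%, 18.1% and 23.0% in cold mice fell on the retained-intron transcript Hsp90b1-202. Over all member reads, retained-intron transcripts took 2.73% (cold 7) to 4.63% (cold 16).

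Edem1-205, annotated as a target of nonsense-mediated decay, took more reads than the coding Edem1-201, 227 against 171. It holds 260 bases that Edem1-201 lacks and its annotated coding sequence is 1617 bases in place of 1956. Its share was 56.3% ± 5.47 in ctrl and 58.0% ± 6.47 in cold mice, lowest in ctrl 10 and highest in cold 16 (65.5%), with overlapping groups. The remaining genes tested for usage, Hyou1, P4hb and Sel1l, had unadjusted usage p values of 0.682, 0.999 and 0.910. Sel1l was divided over 3 tested transcripts, of which Sel1l-201 took 46.4% ± 3.87 in ctrl and 43.4% ± 3.62 in cold mice. P4hb-201 took 95.1% ± 1.30 and 95.2% ± 3.34 of the P4hb reads.

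**Figure D5:**
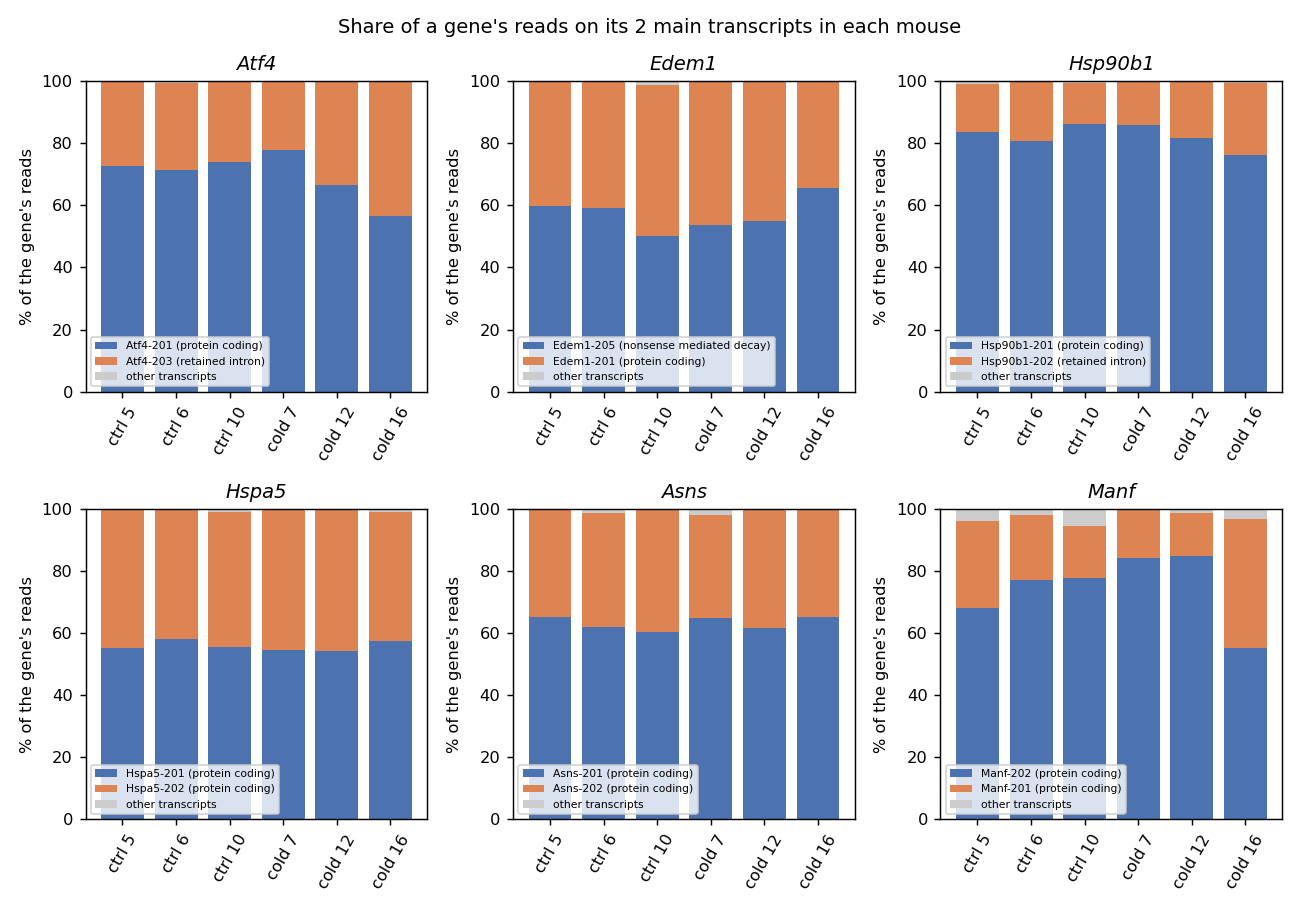
Percentage of a gene's reads (y axis, 0 to 100) on its 2 transcripts with the most reads and on all others, for 6 genes in each of the 6 mice. The 2 transcripts of Hspa5 and Asns keep nearly the same proportion in all mice, and the share of Atf4-203 runs from 22.1% in cold 7 to 43.5% in cold 16.

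Other genes of the pathway, 129 listed in 5 groups, were read off the same fit. Of these 118 were tested, 72 with a positive and 46 with a negative value (median 0.05), and by edgeR 0 passed, against 0.655% of all genes. At an unadjusted p under 0.05, 3 stood higher and 1 lower, against 4.72% and 3.71% of all genes. Groups did not overlap in 8 genes with cold higher and in 7 with cold lower, against 5.96% and 7.7% of all genes. The other ATF4-responsive genes had 10 positive and 7 negative values among 17 tested. Their summed level was 2647, 2481 and 2662 CPM in ctrl 5, 6 and 10, and 2296, 2463 and 2385 CPM in cold 7, 12 and 16. In this sum every cold mouse lay below every control mouse, but the sum rests heavily on Eif4ebp1 (below). The mean of the sum was 2597 CPM in ctrl and 2381 CPM in cold mice. Eif4ebp1 alone had means of 1079 and 827 CPM, a larger difference than that of the whole sum. By group means, the other genes of the list together were thus not lower in cold mice. The median log2 fold change of the list was 0.07. Slc3a2, the heavy chain of amino acid transporters, had 87.5, 113 and 93.5 CPM in ctrl and 135, 140 and 120 CPM in cold mice, all above the controls (log2 fold change 0.45 ± 0.15, adjusted p = 0.328). It was the 1 gene of these groups to pass in any other setting, with the X2 files alone (0.79 ± 0.19, adjusted p = 0.0328). Eif4ebp1, which holds back cap-dependent translation, pointed the other way, with 1129, 944 and 1162 CPM in ctrl and 729, 928 and 824 CPM in cold mice, all below the controls (-0.36 ± 0.13, adjusted p = 0.395).

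Of the other ER folding factors 13 were positive and 16 negative among 29 tested. P4ha1, the catalytic subunit of collagen prolyl 4-hydroxylase whose partner is the member P4hb, had 9.60, 13.4 and 15.0 CPM in ctrl and 35.8, 21.8 and 17.9 CPM in cold mice. All cold mice lay above the controls, from 9 to 18 reads in each control and 14 to 26 in each cold mouse (log2 fold change 0.96 ± 0.32, adjusted p = 0.315). P4hb, by contrast, had group means of 279 and 284 CPM. Prdx4, a peroxidase of the ER, had 42.6 ± 6.50 CPM in ctrl and 56.3 ± 10.1 CPM in cold mice (0.42 ± 0.20, adjusted p = 0.612).

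The other sensors and regulators had 11 positive and 4 negative values among 15 tested. Tmbim6, an ER membrane protein known to restrain IRE1, had 434 to 447 CPM in ctrl and 461 to 626 CPM in cold mice (0.25 ± 0.14, adjusted p = 0.669), and cold 7 and cold 12 lay only just above the controls, at 461 and 462 CPM. Creb3l1, an ATF6-related factor, had 13.2 to 15.7 CPM in ctrl and 9.65 to 11.5 CPM in cold mice (-0.42 ± 0.32, adjusted p = 0.822). Of the other degradation genes 12 were positive and 8 negative among 20 tested, with Ube2j1, a ubiquitin-conjugating enzyme of the ER, at 0.40 ± 0.19 (adjusted p = 0.566). The translocon, signal peptidase and glycosylation genes had 26 positive and 11 negative values among 37 tested, and their summed level was 3743 ± 152 CPM in ctrl and 3822 ± 84.7 CPM in cold mice. Srpr, the receptor that docks ribosomes at the ER, stood at 0.31 ± 0.16 (adjusted p = 0.656), and Ostc, a subunit of the glycosylation enzyme, at 0.36 ± 0.20 (adjusted p = 0.694).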

How the data were processed

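The deposited values are raw counts of reads for each annotated transcript, made by the authors, in files X1 and X2 for each of the 6 mice, and what separates X1 from X2 is not stated. Per the submitters' processing notes, reads were aligned with minimap2 to GRCm38. For the counting tool, its use of strand and how it placed ambiguous reads, details were not given in the sources used here. Both files of a mouse were summed to 1 sample, since over transcripts with at least 20 reads their counts differed by about the sampling noise (chi-square per degree of freedom 1.02 to 1.06). Transcript counts were summed to genes through GENCODE M21, where 61538 of 61729 identifiers matched. CPM is relative to reads on genes, and for transcripts to all reads.

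Counts of genes, and of transcripts, were fitted with edgeR 4.0.16 (quasi-likelihood F test, TMM, filterByExpr with a minimum count of 10, Benjamini-Hochberg adjustment over all features tested, threshold 0.05), and usage with diffSpliceDGE and Simes p values. Adjusted p stands for this test. Intervals of 95% come from the SE, which was derived from the F statistic, and limits on a count of 0 cover counting error only. The fits were tested on simulated data. Alternatives were DESeq2 1.42.0, other factors and filters, 1 file of each mouse, coding transcripts alone, and each mouse left out.

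The members and lists were chosen with earlier results of these data known. Named are all 33 members, the 2 genes of each other pathway list with the smallest p and any past the threshold, and the tested transcripts of members with at least 2. A gene that this rule takes and a cell type marker are not reported here. Manf-202, Manf-201 and the 5 tested genes that share the response element were named after their values were seen.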

Additional observations from a re-analysis of the deposited data

How the results depend on the processing

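No member gene passed the threshold with edgeR or DESeq2 under any alternative run or without any 1 mouse, and the lowest adjusted p was 0.0714 (Manf without cold 16). Of 365 member values under alternatives, 326 had the same sign and call and 39 the opposite sign, in 19 members whose log2 fold change was at most 0.28 in size. Manf, Asns and Hspa5 were not among them. The median of the members was 0.03 to 0.11 with another tool, filter or file or without 1 mouse, save 0.01 without cold 7 and -0.01 without ctrl 6. With the X2 files alone the values were 0.0065 (Dnajb9), 0.047 (Edem1), -0.023 (Calr), -0.00076 (Pdia6), 0.097 (Herpud1) and 0.099 (Derl2). With the X1 files alone they were -0.058 (Ddit3), 0.074 (Hyou1) and -0.17 (Derl1). Creld2 was -0.043 with DESeq2 and -0.016 with no filter, and Atf4 -0.035 on coding transcripts. Leaving out 1 mouse gave ranges across 0 for Dnajb9 (-0.21 to 0.043), Dnajc3 (-0.12 to 0.18), Sec61b (-0.0050 to 0.26), Hsp90b1 (-0.062 to 0.22), Sdf2l1 (-0.072 to 0.56), Creld2 (-0.36 to 0.24), Calr (-0.071 to 0.18), Canx (-0.083 to 0.17), Pdia3 (-0.34 to 0.064), Pdia4 (-0.33 to 0.086), Pdia6 (-0.12 to 0.25), P4hb (-0.031 to 0.11), Herpud1 (-0.19 to 0.097), Derl1 (-0.022 to 0.12) and Derl2 (-0.23 to 0.016). Genes called in all were 371 with no filter, 38 with the X2 files, and 35 (without cold 12) to 199 (without cold 7) without 1 mouse. Transcripts called were 30 with the X1 and 26 with the X2 files, and 26 to 162 without 1 mouse. Other pathway genes called were 1 with the X2 files (Slc3a2). Without 1 mouse, 0 to 1 member transcripts (Manf-202, without cold 16) and 0 to 1 genes with changed usage (without cold 7, no member) were called. The cause was not tested. Depth limits most the 4 untested members and the genes near 10 CPM.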
